A study of Homo sapiens with 6 samples.

Results

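Of the 31016 genes in the table, 3 were followed library by library. These 3 had been described as noncoding and absent from either DLD-1 group, and they are not the only genes absent from a group. They are LINC01709 (ENSG00000226715), AC010547 (ENSG00000261611) and AC073585 (ENSG00000286088), and they were taken by name after earlier results of the same data had shown large differences in their counts between the groups. The counts of the 3 genes are therefore a description. All 3 passed the filter on low counts and were among the 18265 genes of the fit, but no p-value of theirs is given. The genes around them were chosen by position alone and were tested. DLD-1 is an epithelial cell line from a human colorectal adenocarcinoma. Cells of the TGFb_TFA group (3 libraries) were given TGF-β together with TFA, a total flavone extract from Abelmoschus manihot, a flowering plant, and cells of the TGFb group (3 libraries) were given TGF-β without TFA. All 6 libraries thus come from TGF-β-treated cells of a single line, and the labels give 24, 25 and 26 h of treatment for replicates 1, 2 and 3 of each group; whether these hours are real differences or a numbering slip in the labels is not known. Nothing in the labels says that replicates were separate cultures, so their spread may be technical.

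Long noncoding RNAs are transcripts that are not translated into a known protein, and many are made at low levels in few cell types. Some gene records are instead readthrough loci, where transcription runs past the end of a gene and splicing joins its exons to those of the next gene on the same strand. Such joined RNAs often carry an early stop codon and are then annotated as targets of nonsense-mediated decay, the pathway that degrades mRNAs with premature stops. A processed pseudogene is a copy of an mRNA that was written back into the genome, and reads from it can be hard to tell from reads of its parent gene.

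The description "noncoding and absent" held for LINC01709, which the table types as a long noncoding RNA and which had a count of 0 in every TGFb library. AC010547 and AC073585 had counts above 0 in all 6 libraries, and the table gives them only transcripts of the nonsense-mediated decay type. Each of them overlaps a pair of protein-coding genes on its own strand, and GENCODE 29 lists AC010547 as protein coding. GENCODE 29 has no gene AC073585, but it lists that gene's transcript ENST00000368904 under CUZD1, and RefSeq names a readthrough gene FAM24B-CUZD1 at the same place. Several records share these clone-based names, so identifiers are given where a name is not unique.

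Positions are in the build GRCh38, and sequences are printed where they show how the RNA of a gene differs from that of its partners. LINC01709 lies at chr1:101639509-101787572 on the plus strand. The last exons of its GENCODE 29 transcript ENST00000648951 run through RPSAP19, a processed pseudogene of the ribosomal protein gene RPSA on the minus strand (chr1:101786340-101787219). AC010547 lies at chr16:71447600-71489311 on the minus strand, where it covers ZNF23 almost wholly and part of ZNF19, which runs from 71464555 to 71565089 in the table. For it and AC073585 the informative letters are the exon joins that neither partner has, printed as 15 bases of the upstream exon in lower case and 15 of the next exon in capitals. In transcript ENST00000561908 of AC010547, exon 5 lies within ZNF19, exon 6 lies between the genes and exon 7 lies within ZNF23, so these joins (chr16:71463648-71478228 and chr16:71462370-71463546) are the bridge.
AC010547 exon 5 to 6: aaaacgtctgtaaagTTATTCTCTAGCTGA
AC010547 exon 6 to 7: aactatcaccattaaGGGTAACAGTCACCG
AC073585 lies at chr10:122832167-122879583 on the minus strand, and its single join of that kind (chr10:122846220-122849237) links exon 2, within FAM24B, to exon 3 at the start of CUZD1.
AC073585 exon 2 to 3: tctgagttaggaaagGCTCCCTTCTCAAAG
The bridges are short beside what is shared. Of 4505 exon bases of AC010547 in GENCODE 29, 777 were also exon bases of ZNF19 and 3344 of ZNF23, which left 384 in neither, and 3 of its 14 introns belonged to neither partner. Of 2903 exon bases of the AC073585 transcript ENST00000368904, 330 were shared with FAM24B and 2279 with CUZD1, which left 294. In that transcript 1 of 10 introns belonged to neither partner. Transcript ENST00000648951 of LINC01709 shared 221 of its 1726 exon bases with RPSAP19, or 12.8%. The shares with partners were 91.5% for AC010547 and 89.9% for the AC073585 transcript. The authors' model of LINC01709 was not that transcript alone, since the ratio of count to FPKM implied 2862 to 2871 bases. The AC073585 transcript used here begins 28790 bases after that gene's start in the deposited table. The shared part in the authors' models of LINC01709 and AC073585 is therefore not known.

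**Figure D1:**
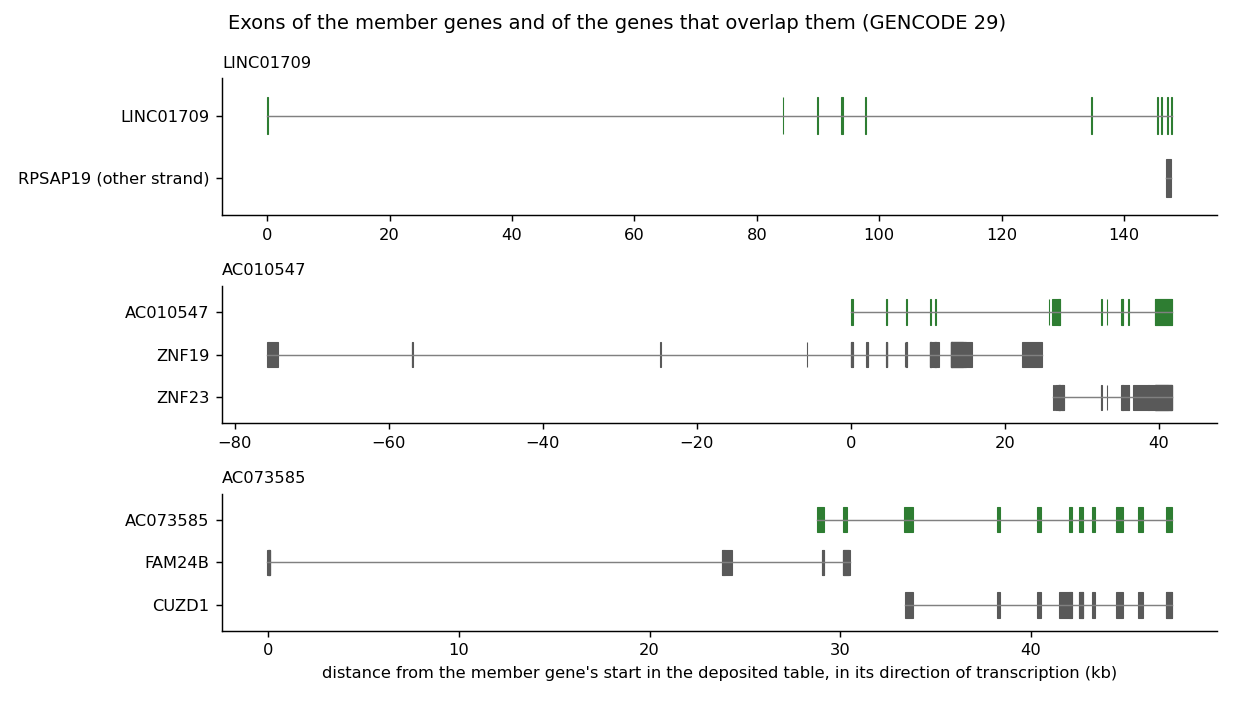
Exons (boxes) of LINC01709, AC010547 and AC073585 in green and of the genes that overlap them in grey, from GENCODE 29, against the distance in kb from the gene's start in the deposited table, in the direction of transcription. LINC01709 is drawn from transcript ENST00000648951 alone and AC073585 from ENST00000368904 alone, which is left out of CUZD1. The other genes are drawn from all their transcripts. RPSAP19 covers only the end of LINC01709 on the other strand, whereas the boxes of AC010547 and AC073585 mostly coincide with those of their partners; the AC073585 model of GENCODE 29 begins about 29 kb after the start given in the table.

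No gene of the 3 had a RefSeq promoter window under its own name, but AC010547 starts 13 bases from the RefSeq start of ZNF19 and AC073585 starts 58 bases from that of FAM24B-CUZD1. Those windows, 250 bases before to 50 after the start in GRCh38.p14 on the minus strand, are printed because the readthrough and the first partner share this start region. Capitals mark GCGTG, the core motif of the aryl hydrocarbon receptor, as read on the printed strand or its complement.
ZNF19 window, chr16:71489275-71489574: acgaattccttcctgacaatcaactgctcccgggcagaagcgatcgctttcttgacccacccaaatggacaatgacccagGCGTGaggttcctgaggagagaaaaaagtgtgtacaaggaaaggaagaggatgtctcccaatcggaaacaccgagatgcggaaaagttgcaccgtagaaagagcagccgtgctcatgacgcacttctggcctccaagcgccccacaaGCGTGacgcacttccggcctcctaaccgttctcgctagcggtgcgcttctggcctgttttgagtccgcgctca
FAM24B-CUZD1 window, chr10:122879592-122879891: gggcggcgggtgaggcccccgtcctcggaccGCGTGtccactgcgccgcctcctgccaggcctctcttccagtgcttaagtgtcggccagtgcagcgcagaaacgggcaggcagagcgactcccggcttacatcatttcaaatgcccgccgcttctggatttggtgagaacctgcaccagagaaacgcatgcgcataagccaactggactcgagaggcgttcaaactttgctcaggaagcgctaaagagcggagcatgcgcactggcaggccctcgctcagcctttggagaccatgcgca
GCGTG occurred 2 times in the ZNF19 window and 1 time in the FAM24B-CUZD1 window, and 36.4% of all 34796 RefSeq windows hold it on either strand. CAGAC, a SMAD motif found in 45.3% of windows, and TTCNNNGAA, a STAT3 motif found in 7.67%, did not occur in either window on either strand. A match is only a run of letters, and binding was not measured.

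Libraries held 60361756 to 68745953 estimated counts, and 23096 to 24159 genes were above 0 in each. A fragment was taken to add 4 counts, since a count of 4 stood in 1032 to 1271 genes per library, against 853 to 936 genes for a count of 1, 689 to 770 for 2, 601 to 685 for 3 and 345 to 396 for 5. Counts of 1 to 3 do occur, so the step is approximate, and so are the floors and intervals that rest on it. TGFb_TFA 3 stood apart, with its longest 10% of genes at a median of -0.52 (log2, from the mean of all libraries) and its shortest at 0.24, and values without it are given where it turns a sign or moves a value most. Of 9 colorectal epithelial markers of the labelled cell type, 7 had at least 1 FPKM. VIL1, another of the 9, stood at only 0.0356 to 0.302 FPKM. The summed level of the 9 markers was 1322 to 1466 FPKM in TGFb_TFA and 1416 to 1661 FPKM in TGFb. Summed fibroblast markers stood at 0.440 to 2.35 FPKM in TGFb_TFA and 0.0377 to 0.346 FPKM in TGFb, with none of 8 reaching 1 FPKM. Summed endothelial markers stood at 1.95 to 2.22 FPKM in TGFb_TFA and 1.31 to 1.81 FPKM in TGFb, with 1 of 7 reaching 1 FPKM, and 5 blood markers at 0.343 to 0.927 FPKM in TGFb_TFA and 0.399 to 0.603 FPKM in TGFb. The part of these markers in the results below was not tested. CYP1A1, a target of the aryl hydrocarbon receptor, averaged 22.5 FPKM in TGFb_TFA and 0.5001 FPKM in TGFb, STBD1 10.3 FPKM and 2.29 FPKM, and AL137782 (ENSG00000261553), the lncRNA of the study's title, 5.73 FPKM and 2.21 FPKM.

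LINC01709 had estimated counts of 74, 90 and 157 in TGFb_TFA 1, 2 and 3, against 0, 0 and 0 in TGFb 1, 2 and 3. The groups did not overlap, and TGFb_TFA 3 was the highest library. Its level was 0.379, 0.447 and 0.802 FPKM in the TGFb_TFA libraries (0.543 ± 0.227 FPKM, SD, n = 3), against 0 FPKM in each TGFb library. That mean lay above 56.5% of the 28209 genes with any FPKM in TGFb_TFA and above 88.8% of the 5996 lncRNA genes among them, so it was a middling level for a gene and a high one for a lncRNA. A count of 0 allows up to 3 fragments, or 12 estimated counts, in each TGFb library, which equals 0.175 to 0.191 CPM, counts scaled to the library total. Against that floor LINC01709 was at least 9.63-fold higher in TGFb_TFA, a log2 ratio of at least 3.27, and at least 2.87 without TGFb_TFA 3. Such floors and all intervals on shares and ratios cover counting error only. Groups that do not overlap are no rarity in this table: 1444 of 18265 tested genes, or 7.91%, had them (4.58% higher and 3.33% lower in TGFb_TFA), and the 3 genes described here were picked for a difference of that kind. In bulk RNA, fewer cells with a transcript and less of it per cell cannot be told apart.

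**Figure D2:**
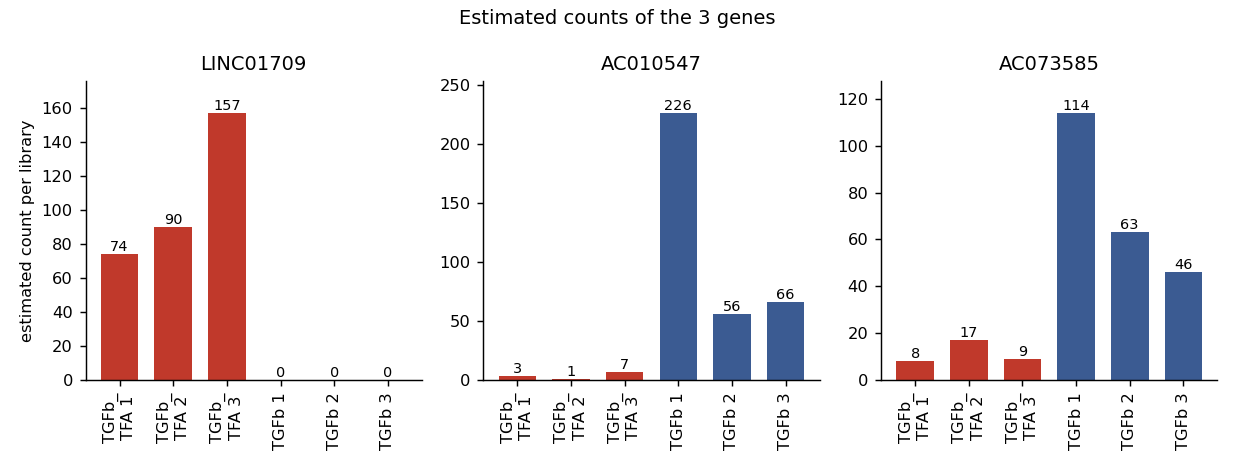
Estimated count (vertical axis, from 0) of each gene in every library, TGFb_TFA in red and TGFb in blue. LINC01709 stands at 74 to 157 in TGFb_TFA and at 0 in TGFb, whereas AC010547 and AC073585 have low counts, not 0, in TGFb_TFA and reach their highest count in TGFb 1.

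RPSAP19, the pseudogene on the other strand of the LINC01709 end, was counted in every library. It had 783, 853 and 1435 estimated counts in the TGFb_TFA libraries, against 987, 1118 and 870 in the TGFb libraries. The groups overlapped, and TGFb_TFA 3 was again the highest. Its log2 fold change was 0.22 (95% interval -0.47 to 0.92, adjusted p = 0.9997, edgeR quasi-likelihood test), and it was -0.22 without TGFb_TFA 3. LINC01709 took 8.63% (exact Clopper-Pearson 95% interval 5.06 to 13.0), 9.54% (5.93 to 13.8) and 9.86% (7.06 to 13.2) of the counts of both genes in TGFb_TFA 1, 2 and 3. In TGFb 1, 2 and 3 its share was 0%, with exact 95% intervals that reach 1.48%, 1.31% and 1.68%. The floor of 3 fragments allows up to 1.21%, 1.07% and 1.38%. The share varied less across the TGFb_TFA libraries than the LINC01709 count did, and both genes were highest in TGFb_TFA 3. RPSA, the parent gene, which encodes a protein of the small ribosomal subunit, was highest there too, with 155035, 164504 and 232850 counts in TGFb_TFA 1, 2 and 3, against 173171, 209904 and 156180 in the TGFb libraries (log2 fold change 0.20, 95% interval -0.36 to 0.76). RPSAP19 had 5.05, 5.19 and 6.16 counts per 1000 RPSA counts in the TGFb_TFA libraries, against 5.70, 5.33 and 5.57 in the TGFb libraries. With LINC01709 added to RPSAP19, the TGFb_TFA values were 5.53, 5.73 and 6.84, while the TGFb values are unchanged by construction. LINC01709 and RPSAP19 are antisense to each other and the library kit kept strand, but no source used here says whether counting used strand, so reads from either cannot be told apart with certainty. RPSAP19 is 1 of 35 RPSA pseudogenes in the table, of which 19 exceeded 12 counts in some library, and its own counts are uncertain because such copies share reads with RPSA.

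**Figure D3:**
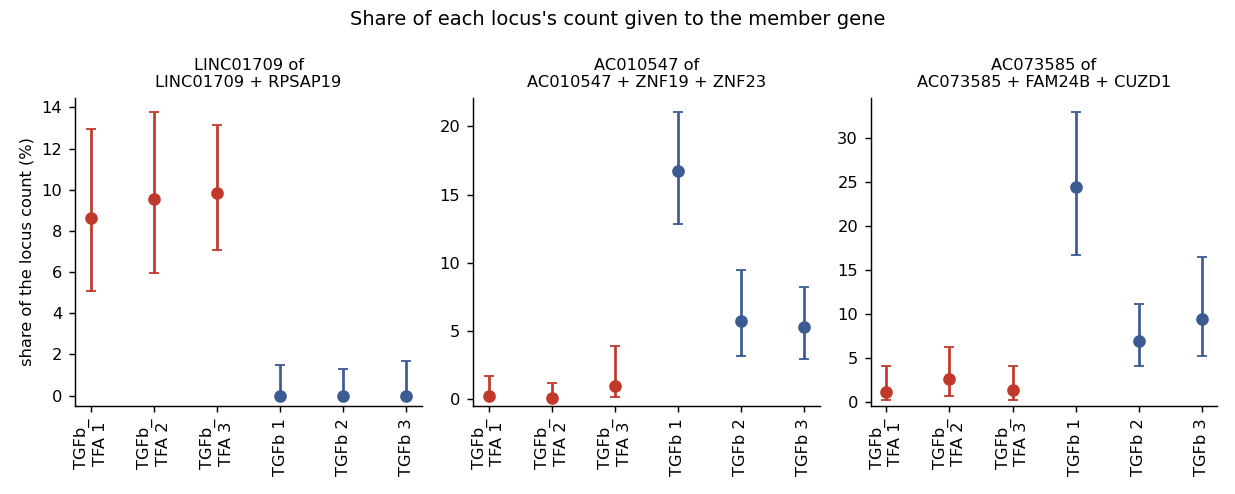
Share (%) of the summed count of each locus that was given to the named gene, per library, TGFb_TFA in red and TGFb in blue; bars are exact 95% binomial intervals with 4 counts taken as 1 fragment. LINC01709 holds 8.63% to 9.86% in TGFb_TFA and 0% in TGFb, and AC010547 and AC073585 are lower in every TGFb_TFA library than in any TGFb library. The genes were picked for such differences in their counts, so the shares are no test of them.

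AC010547 had estimated counts of 3, 1 and 7 in TGFb_TFA 1, 2 and 3, against 226, 56 and 66 in TGFb 1, 2 and 3. Every TGFb library lay above every TGFb_TFA library, and TGFb 1 stood well above the other two. Its level was 0.0106 ± 0.00894 FPKM in TGFb_TFA and 0.341 ± 0.269 FPKM in TGFb (SD, n = 3 each). At 4 counts per fragment the groups held 3 fragments in TGFb_TFA and 87 in TGFb, a depth-scaled level 26.9 times lower in TGFb_TFA (exact 95% interval 8.90 to 133). Such intervals, here and for AC073585, pool the libraries of a group as independent fragments and leave out the spread between libraries. They were taken on genes picked for this difference, so they are no test of it. Without TGFb 1 there were 3 fragments in TGFb_TFA and 30 in TGFb and the level was 14.2 times lower (4.42 to 72.8). The log2 ratio was -4.84, against -3.97 without TGFb 1 and -5.72 without TGFb_TFA 3.

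ZNF19 and ZNF23, which encode zinc finger proteins and whose exons AC010547 joins, were counted under their own records in every library. ZNF19 had 217, 257 and 177 counts in the TGFb_TFA libraries, against 291, 191 and 189 in the TGFb libraries (log2 fold change 0.10, 95% interval -0.42 to 0.61). ZNF23 had 1108, 1006 and 545 counts in the TGFb_TFA libraries, against 832, 726 and 990 in the TGFb libraries (log2 fold change 0.18, -0.37 to 0.72). Both genes overlapped between the groups and neither passed the edgeR test (adjusted p = 0.9997 each). AC010547 took 0.226%, 0.0791% and 0.960% of the counts of the 3 records in TGFb_TFA 1, 2 and 3, against 16.8%, 5.76% and 5.30% in TGFb 1, 2 and 3. The summed count of the locus was 1328, 1264 and 729 in the TGFb_TFA libraries, against 1349, 973 and 1245 in the TGFb libraries. These sums overlapped, with a fitted log2 fold change of 0.02 (95% interval -0.46 to 0.49). Without AC010547 the sums were 1325, 1263 and 722 in TGFb_TFA, against 1123, 917 and 1179 in TGFb, and the fitted value was 0.16 (-0.31 to 0.63). The low AC010547 counts of TGFb_TFA thus stood in a locus whose total did not separate the groups. Most of that total was counted under ZNF19 and ZNF23, so it says little about AC010547 itself. No source used here says how counts from shared exons were divided among the 3 records, and its part in the difference was not tested.

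AC073585 had estimated counts of 8, 17 and 9 in TGFb_TFA 1, 2 and 3, against 114, 63 and 46 in TGFb 1, 2 and 3. The groups did not overlap, and TGFb 1 was the highest library, as for AC010547. Its level was 0.0555 ± 0.0253 FPKM in TGFb_TFA and 0.382 ± 0.168 FPKM in TGFb (SD, n = 3 each). The groups held 8 fragments in TGFb_TFA and 56 in TGFb, a depth-scaled level 6.49 times lower in TGFb_TFA (exact 95% interval 3.08 to 15.8), and 4.80 times lower without TGFb 1 (2.12 to 12.2).

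CUZD1, which encodes a protein with CUB and zona pellucida-like domains, had 438, 463 and 434 counts in the TGFb_TFA libraries, against 96, 542 and 180 in the TGFb libraries. The TGFb_TFA libraries were nearly equal, whereas the TGFb libraries reached both below and above them. TGFb 1, the library with the highest AC073585 count, had the lowest CUZD1 count. Its log2 fold change was 0.83 (95% interval -0.48 to 2.15, adjusted p = 0.9997, edgeR), and it was 0.40 without TGFb 1 and 1.83 without TGFb 2. FAM24B had 253, 168 and 257 counts in the TGFb_TFA libraries, against 256, 306 and 265 in the TGFb libraries, with overlapping depth-scaled values (log2 fold change -0.13, -0.73 to 0.47, adjusted p = 0.9997, edgeR). AC073585 took 1.14%, 2.62% and 1.29% of the counts of the 3 records in TGFb_TFA 1, 2 and 3, against 24.5%, 6.92% and 9.37% in TGFb 1, 2 and 3. The locus sums were 699, 648 and 700 in the TGFb_TFA libraries, against 466, 911 and 491 in the TGFb libraries (fitted log2 fold change 0.27, 95% interval -0.39 to 0.94). Without AC073585 the sums were 691, 631 and 691 in TGFb_TFA, against 352, 848 and 445 in TGFb (0.43, -0.34 to 1.21). As for AC010547, the locus total overlapped between the groups while the share given to the readthrough record did not. This contrast is no test. The share rests on the counts for which both genes were picked, and the total is mostly counts of the partner genes.

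The genes around the 3 loci were tested in the fit over all 18265 genes that passed the filter on low counts. They were the genes whose span overlaps one of the 3 and the 5 nearest on each side on either strand, 36 in all, of which 20 passed the filter (8 at LINC01709, 4 at AC010547 and 8 at AC073585). Of these 20, edgeR and DESeq2 called 0 at an adjusted p under 0.05 and edgeR found 1 at an unadjusted p under 0.05. Over all tested genes edgeR called 2 (0.0109%), CYP1A1 and STBD1, DESeq2 called 13 (0.0712%), and 334 (1.83%) had an unadjusted p under 0.05. These totals include the 3 genes picked for their difference. With those left out, DESeq2 called 10 (0.0548%) and 331 (1.81%) had an unadjusted p under 0.05 in edgeR. The fitted log2 fold change was above 0 in 14 of the 20 and below 0 in 6, with a median of 0.13, against 0.01 over all tested genes. C10orf88 was the only tested neighbour whose depth-scaled groups did not overlap, 1 of 20 against 7.91% of all tested genes. Among the neighbours that did not pass the filter, the groups of TAT, near AC010547, did not overlap either. It had 4, 8 and 2 counts in TGFb_TFA, against 0 in each TGFb library, and is named after its values were seen.

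Near LINC01709, DPH5, an enzyme of diphthamide synthesis, had 3601, 3862 and 5142 counts in TGFb_TFA, against 4202, 3971 and 3664 in TGFb (log2 fold change 0.26, 95% interval -0.23 to 0.74, and -0.018 without TGFb_TFA 3). AC093157 (ENSG00000233184), a lncRNA gene that overlaps the start of DPH5, had a log2 fold change of 0.09 (-0.35 to 0.54), and of -0.095 without TGFb_TFA 3. Another gene of that name, ENSG00000235795, was the neighbour with an unadjusted p under 0.05 and is named after its values were seen. It had 46, 52 and 15 counts in TGFb_TFA, against 20, 15 and 12 in TGFb (log2 fold change 1.36, 0.07 to 2.66, adjusted p = 0.9997, edgeR), and TGFb_TFA 3 lay within the TGFb range. S1PR1, a receptor for sphingosine-1-phosphate, and OLFM3, a gene of a secreted olfactomedin-domain protein 14988 bases from LINC01709, had at most 10 counts in any library. AC095032 had 4 counts in TGFb_TFA 1 and 0 elsewhere. COL11A1, which encodes a chain of a fibrillar collagen and lies 1088895 bases away, had 11, 19 and 111 counts in TGFb_TFA, against 0, 15 and 0 in TGFb. Its log2 fold change was 3.43 (-0.15 to 7.01, adjusted p = 0.9997, edgeR). Without TGFb_TFA 3, which held most of its counts, it was 1.60, and without TGFb 2, the only TGFb library with counts, it was 8.73, a fitted value against a group at 0 and no bound.

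Near AC010547, CMTR2, an mRNA cap methyltransferase gene that is the fourth gene on the lower side, had 3873, 4418 and 2690 counts in TGFb_TFA, against 4669, 3061 and 3639 in TGFb (log2 fold change 0.08, 95% interval -0.34 to 0.50). It is named after its values were seen, and its groups overlapped. TLE7, CALB2, the calcium-binding protein calretinin, and AC106736 had at most 11 counts in any library, and ENSG00000260015, another AC010547 record, had at most 3. CHST4, a sulfotransferase, had 12, 0 and 4 counts in TGFb_TFA, against 0, 18 and 19 in TGFb (log2 fold change -1.08, -4.51 to 2.36). That value was -2.34 without TGFb_TFA 1 and -0.51 without TGFb_TFA 2. TAT-AS1 had 0, 11 and 12 counts in TGFb_TFA, against 0 in each TGFb library, and it did not pass the filter. ENSG00000247324, an antisense lncRNA within the locus that also bears the name AC010547, had 0, 3 and 3 counts in TGFb_TFA, against 0 in each TGFb library. Values of 3 counts are below the step of 4 taken for 1 fragment.

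Near AC073585, C10orf88B, a transcribed pseudogene 98 bases from the start of AC073585 on the other strand, had 250, 263 and 266 counts in TGFb_TFA, against 293, 193 and 225 in TGFb (log2 fold change 0.29, 95% interval -0.20 to 0.78). C10orf88 had 916, 859 and 818 counts in TGFb_TFA, against 875, 865 and 818 in TGFb, and a level of 4.09 ± 0.263 FPKM in TGFb_TFA and 3.73 ± 0.0469 FPKM in TGFb (SD, n = 3 each). Its groups separated only after scaling for depth, by a log2 fold change of 0.16 (-0.14 to 0.46, adjusted p = 0.9997, edgeR). HTRA1, a secreted serine protease, had 8, 29 and 29 counts in TGFb_TFA, against 0, 21 and 31 in TGFb (log2 fold change 0.47, -2.23 to 3.18). DMBT1, ARMS2 and FAM24A had at most 6 counts in any library.

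**Figure D4:**
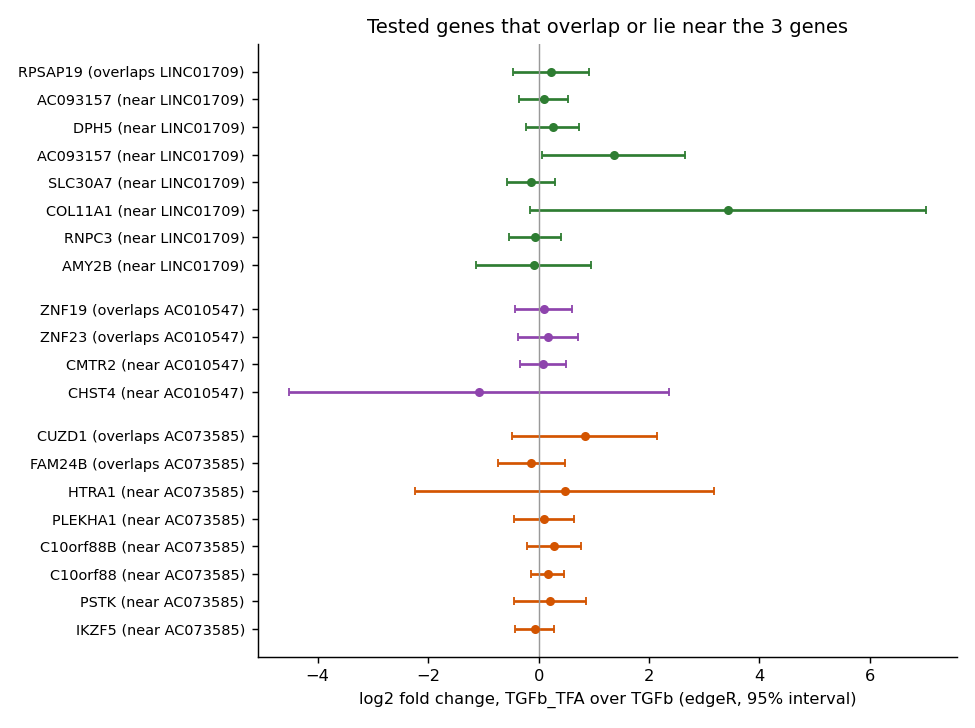
Fitted log2 fold change, TGFb_TFA over TGFb, of the 20 tested genes that overlap or lie near LINC01709 (green), AC010547 (purple) or AC073585 (orange), with 95% intervals from edgeR. The interval of 19 of the 20 includes 0; the exception is the lower AC093157 (ENSG00000235795) point at 1.36, and COL11A1, CHST4 and HTRA1 have the widest intervals.

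LINC01709 was not the only gene at 0 in all libraries of one group and above 0 in every library of the other. Among all genes, 91 (0.293% of 31016) were above 0 in every TGFb_TFA library and at 0 in every TGFb library, and 111 (0.358%) showed the opposite pattern. LINC01709 had higher counts than the others with this pattern. Its lowest TGFb_TFA count was 74, whereas the lowest count of the other 90 genes was at most 12, with a median of 3. In a single library the gap could be small. ELN had 3, 88 and 22 counts in TGFb_TFA, beside 90 for LINC01709 in TGFb_TFA 2, and is named after its values were seen. By lowest count the next genes in that direction were PDGFD, a growth factor of the PDGF family, with 14, 12 and 16 counts in TGFb_TFA, and DPP4-DT, a divergent transcript of DPP4, with 10, 23 and 13. TEX15, RCN3 and AP001542 followed, each with a lowest count of 8. In the opposite direction AL121672 (ENSG00000235159) was highest, with 0 in each TGFb_TFA library and 16, 14 and 10 counts in TGFb, followed by AP000438 and AC008555 with a lowest count of 9. LINC02871, SERPINF2, the plasmin inhibitor α2-antiplasmin, and AC110772 each had a lowest count of 8. Neither AC010547 nor AC073585 was among the 111. With at least 10 counts asked of each library, 3 genes were at 0 in TGFb and 1 was at 0 in TGFb_TFA.

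**Figure D5:**
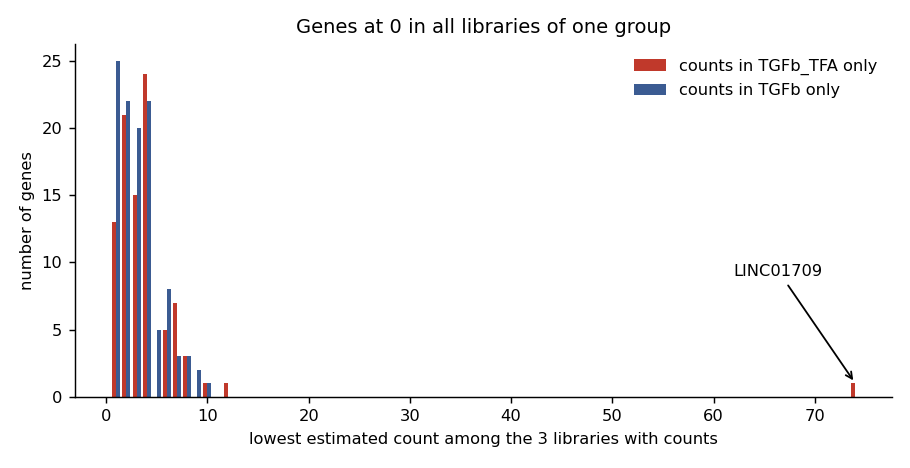
Number of genes (vertical axis) by the lowest estimated count among the 3 libraries with counts (horizontal axis), for 91 genes at 0 in every TGFb library (red) and 111 genes at 0 in every TGFb_TFA library (blue). All but LINC01709 lie at 12 or below, and LINC01709 stands alone at 74.

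The classes of gene that the 3 come from were set beside the table as a whole, with the 3 genes themselves left out of the counts. Of 263 other tested genes with a LINC name, 11 were higher and 15 lower in TGFb_TFA without overlap, or 4.18% and 5.70%, against 4.57% and 3.32% of all 18262 other tested genes. Of 2441 other tested genes with only lncRNA transcripts, 106 were higher and 107 lower without overlap, or 4.34% and 4.38%. Clone-named genes numbered 2239, with 101 higher and 100 lower without overlap, or 4.51% and 4.47%. Of 88 other genes with only nonsense-mediated decay transcripts, 4 were higher and 5 lower without overlap, or 4.55% and 5.68%. Some of these records varied widely within a group, such as BLOC1S5-TXNDC5 (0, 1490 and 0 counts in TGFb_TFA, against 0, 567 and 3163 in TGFb). Others were steady, such as AC010422 (ENSG00000285589), with 2232, 2194 and 2378, against 2553, 2591 and 2391. Fitted log2 fold changes of the 88 ran from -3.29 (AC010197, ENSG00000285854) to 4.16 (AC007192, ENSG00000268173). AC010197 had 0, 0 and 9 counts in TGFb_TFA, against 69, 17 and 23 in TGFb. AC007192 had 97, 0 and 956 counts in TGFb_TFA, against 0, 44 and 26 in TGFb. All these records are named after their values were seen. The median log2 fold change was 0.02 for LINC and for lncRNA genes, 0.03 for clone-named genes and 0.01 for nonsense-mediated decay genes, against 0.01 for all. edgeR called 0 genes in each of these classes. At an unadjusted p under 0.05 there were 8 LINC genes (3.04%), 54 lncRNA genes (2.21%), 55 clone-named genes (2.46%) and 7 nonsense-mediated decay genes (7.95%), against 1.81% of all other tested genes. DESeq2 called 0 LINC genes, 1 lncRNA gene, 1 clone-named gene and 0 nonsense-mediated decay genes, against 10 (0.0548%) of all other tested genes.

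Genes with the most similar profile over the 6 libraries were listed for each gene as a description, by Pearson correlation of log2(CPM + 0.5) over n = 6 libraries. LINC01709 was most like GTDC1, which encodes a glycosyltransferase-like protein, ANGPTL2, a secreted angiopoietin-like protein, and PDGFD (r of 0.993, 0.993 and 0.990), and 29 genes had an r above 0.95. GTDC1 was far from absent in TGFb, with 1080, 1114 and 999 counts in TGFb_TFA, against 991, 902 and 903 in TGFb, so likeness of profile did not mean likeness of size. ANGPTL2 had 27, 29 and 42 counts in TGFb_TFA, against 0, 4 and 4 in TGFb. AC010547 was most like TMX4, a thioredoxin-related membrane protein of the endoplasmic reticulum, the pseudogene GMPSP1, and PDK3, a pyruvate dehydrogenase kinase (r of 0.989, 0.988 and 0.983). TMX4 had 4215, 4416 and 3625 counts in TGFb_TFA, against 5629, 4775 and 4763 in TGFb. AC073585 was most like EXOSC10, a nuclease of the nuclear RNA exosome, AC004923 (ENSG00000254610) and NPY4R2 (r of 0.985, 0.981 and 0.980). EXOSC10 had 7263, 7828 and 6334 counts in TGFb_TFA, against 9337, 8253 and 8092 in TGFb. Points of such correlations share their libraries and depth, and no p is given.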

How the data were processed

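Poly(A) RNA of DLD-1 cells was sequenced with dUTP strand marking and molecular identifiers in the adapters, per the labels' protocols. Tools given in the submitters' processing notes are HISAT2 2.0.4, StringTie 1.3.4d and cutadapt 1.9, with the build GRCh38. The authors deposited, per gene and library, FPKM values and whole-number estimated counts. In single-exon genes the latter are proportional to FPKM times length, to within 1% or 1 count. The step of 4 per fragment was taken from the commonest low count over all genes. No source used here says whether counting used identifiers or strand. The plan assumed counts, and these estimated counts were used as such.

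The 3 genes and all lists were chosen with earlier results of these data known. Estimated counts of all genes were fitted in edgeR 4.0.16 (R 4.3.3) with filterByExpr, TMM and group as the only term (quasi-likelihood test, 2-sided, Benjamini-Hochberg over 18265 genes, called at an adjusted p under 0.05); the steps were tested on simulated data. Alternatives used limma 3.58.1, DESeq2 1.42.0, other filters, scalings and pseudocounts, a replicate block and leaving out each library. Named genes were the 3 genes, overlapping genes, the 3 nearest on each side, the 5 highest genes at 0 in each group, and the 3 most alike in profile; others are said to be named after their values were seen. Exon overlap and sequences came from GENCODE 29 and RefSeq, and positions of genes from the deposited table. No sequence of LINC01709 is reported here.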

Additional observations from a re-analysis of the deposited data

How the results depend on the processing

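With a library left out the 3 genes' log2 ratios ran from 2.87 to 3.47 for the LINC01709 bound, -5.72 to -3.97 for AC010547 and -2.99 to -2.19 for AC073585 (added after seeing the data; since the groups do not overlap, their sign could not turn). With a floor of 3 estimated counts the LINC01709 bound was 5.27 (log2), from the lower floor alone. Summed with their overlapping genes, which hold most of the counts, the log2 ratios were 0.0038 for AC010547 and 0.24 for AC073585. The fitted 95% intervals of these sums (-0.46 to 0.49 and -0.39 to 0.94) included 0, so the sums show no clear direction.

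Genes called higher numbered 2 in edgeR, 11 in DESeq2, 1 in limma-trend on all genes above 0 FPKM, 1 with the replicate block and 1 to 3 with a library left out, and genes called lower were 0 in edgeR and 2 in DESeq2; the cause was not tested. Neighbours called stayed at 0 in each alternative run. Their median log2 fold change (0.13) was 0.20 with no filter, 0.067, 0.091 and 0.046 in limma-trend with pseudocounts of 0.5, 0.1 and 1, 0.030 in limma-trend on all genes above 0 FPKM, 0.20 for the 3 nearest on each side, 0.080 for the same strand, and 0.084 to 0.17 with a library left out. The 91 genes at 0 in TGFb were 42 with counts of at least 4, 3 with at least 10, and 179 to 294 with a library left out; the 111 at 0 in TGFb_TFA were 44, 1 and 194 to 310. Leaving out single libraries turned the sign of small neighbour values, with ranges of -0.22 to 0.40 (RPSAP19), -0.10 to 0.21 (AC093157, ENSG00000233184), -0.018 to 0.38 (DPH5), -0.024 to 0.28 (ZNF19), -0.0034 to 0.38 (ZNF23), -0.33 to 0.069 (FAM24B) and -0.11 to 1.17 (HTRA1).

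Replicate numbers did not pair the libraries (correlations of deviations 0.15, -0.39 and -0.40 for numbers 1, 2 and 3); with the replicate block the neighbours' median was 0.12 and 0 were called. Genes with a few counts are limited by depth.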
